A study of Mus musculus with 8 samples.

Results

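The miR-106b-25 cluster consists of 3 miRNAs, mmu-miR-106b-5p, mmu-miR-93-5p and mmu-miR-25-3p (written below without the mouse prefix), whose hairpins lie together in an intron of the Mcm7 gene. They were chosen by name, as the dominant arm of each hairpin, and are 3 of the 1881 mouse miRNAs on the array and 3 of the 294 that entered the tests. Plasma came from 3-month-old female mice of the outbred NMRI stock. Imatinib (IMB), an inhibitor of the ABL, KIT and PDGF receptor kinases, was given to 9 mice by mouth in water at 100 mg/kg every day for 9 days. Doxorubicin (DOX), an anthracycline that poisons topoisomerase II, was given to 9 mice through the tail vein in saline at 3 mg/kg, in 4 doses with a day between them. The 6 control mice (CTRL) received the solvents alone. Blood was taken from the aorta on the day after the last dose. Plasma of 3 mice was pooled for each 1-colour array, which gave 3 IMB pools, 3 DOX pools and 2 CTRL pools, and the labels call the pools biological replicates. The comparisons ask how each drug changes plasma miRNAs and where the drugs differ, and here they are read for these 3 miRNAs.

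Mcm7 encodes a subunit of the helicase that opens DNA for replication, and its transcription is driven by E2F factors in dividing cells, so the 3 hairpins are made together with a cell cycle gene. A miRNA recognises its targets mainly through its seed, the bases just after the 5′ end. miR-106b-5p and miR-93-5p carry the seed of the miR-17 family, which represses the cell cycle inhibitor Cdkn1a (p21) and the proapoptotic gene Bcl2l11 (Bim), and miR-25-3p carries that of the miR-92 family. The cluster is a paralog of miR-17-92 and miR-106a-363, and its members are abundant in red blood cells and their precursors, which are a main source of miRNA in plasma.

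The mature sequences are shown because they define 2 families within the cluster. Capitals mark the seed, bases 2 to 8 from the 5′ end, and sequences and positions are those of RefSeq on GRCm38.p6.
miR-106b-5p: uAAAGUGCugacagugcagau
miR-93-5p: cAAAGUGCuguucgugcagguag
miR-25-3p: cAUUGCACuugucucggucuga
All are encoded on the minus strand, miR-106b-5p at chr5:138165787-138165807, miR-93-5p at chr5:138165574-138165596 and miR-25-3p at chr5:138165332-138165353. Laid side by side from the 5′ end without gaps, miR-106b-5p and miR-93-5p were identical at 16 of 21 positions, whereas miR-25-3p was identical to miR-106b-5p at 5 of 21 and to miR-93-5p at 9 of 22.

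The relatives with the same seeds are shown because their plasma values are set beside those of the cluster.
miR-17-5p: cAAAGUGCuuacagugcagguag
miR-20a-5p: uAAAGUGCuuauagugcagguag
miR-20b-5p: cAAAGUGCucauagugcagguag
miR-92a-3p: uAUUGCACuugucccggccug
miR-106b-5p was identical to miR-17-5p and to miR-20a-5p at 18 of 21 positions each, and miR-93-5p to miR-20b-5p at 20 of 23. miR-25-3p was identical to miR-92a-3p at 18 of 21. Whether a probe of one relative also bound another was not tested. miR-92a-3p is encoded by hairpins on chromosomes 14 and X, which a probe for the mature form cannot tell apart.

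The hairpins are shown because 1 arm of each was detected in plasma and the other arm was not. Capitals mark the detected arm.
Mir106b: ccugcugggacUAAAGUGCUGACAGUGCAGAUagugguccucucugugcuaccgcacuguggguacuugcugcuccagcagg
Mir93: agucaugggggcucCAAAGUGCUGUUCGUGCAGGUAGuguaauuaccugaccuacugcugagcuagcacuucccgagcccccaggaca
Mir25: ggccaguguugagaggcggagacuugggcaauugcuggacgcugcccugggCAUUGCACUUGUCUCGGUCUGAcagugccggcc
The hairpins lie at chr5:138165737-138165818, chr5:138165523-138165610 and chr5:138165321-138165404, all inside Mcm7. Mir106b and Mir93 are separated by 126 bases and Mir93 and Mir25 by 118, and the 3 hairpins span 498 bases. The detected arm is on the 5′ side in Mir106b and Mir93 and on the 3′ side in Mir25.

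The promoter of the host gene is shown because the 3 members share it. Of the 2 Mcm7 starts in RefSeq, the one at chr5:138171834-138172133 (minus strand, 250 bases before to 50 after the start) held matches to E2F words, which are in capitals.
Mcm7 promoter: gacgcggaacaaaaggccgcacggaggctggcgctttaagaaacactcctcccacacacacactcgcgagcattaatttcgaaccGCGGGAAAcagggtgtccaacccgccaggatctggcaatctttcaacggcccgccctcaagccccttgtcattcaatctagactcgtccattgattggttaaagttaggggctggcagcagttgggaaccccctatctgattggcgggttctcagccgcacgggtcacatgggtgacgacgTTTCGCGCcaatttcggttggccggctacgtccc
The words searched on both strands were TTTCGCGC, TTTGGCGC and TTTCCCGC. TTTCGCGC began at base 267 on the plus strand of the window, and TTTCCCGC at base 86, read on the other strand. At least 1 of the 3 words was present in 606 of 32851 RefSeq promoters of the same length (1.84%). The second Mcm7 window held none of them, and neither window held the E-box CACGTG, which 7.15% of promoters held. A match is a description of the letters and not of binding.

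All 8 arrays lay on 1 slide, in 2 rows: IMB 1, DOX 1, DOX 2 and CTRL 1 in row 1, and IMB 2, IMB 3, DOX 3 and CTRL 2 in row 2. Before scaling, the signal's 75th percentile ran from 196 to 425 in IMB, from 213 to 267 in DOX and from 300 to 349 in CTRL pools. Between 266 and 339 miRNAs were detected in IMB pools, 258 to 279 in DOX pools and 297 to 327 in CTRL pools. The miRNAs past the limma threshold were miR-144-3p and miR-202-3p (higher) and miR-34a-5p (lower) in IMB against DOX, miR-144-3p, miR-202-3p and miR-7058-5p (higher) in IMB against CTRL, and miR-34a-5p, which p53 induces, in DOX against CTRL (higher). Precision is limited throughout by how few arrays there are.

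All 3 members were measured well above background everywhere. Agilent's gene-level flag called each of them detected on all 8 arrays, and the well-above-background flag was set for 240 of 240 spots of miR-106b-5p, 234 of 234 of miR-93-5p and 238 of 238 of miR-25-3p. Each had 2 probes with 13 to 15 usable spots per array. The coefficient of variation among the spots of a probe lay between 2.52% and 8.34%, and no spot was saturated.

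miR-106b-5p, the first hairpin of the cluster, had log2 scaled signals (log2 of intensity after scaling) of 9.34, 9.13 and 8.82 in the IMB pools, 8.74, 8.54 and 8.57 in the DOX pools, and 9.23 and 8.85 in the CTRL pools. Group means were 9.10 ± 0.26 (SD, n = 3) in IMB, 8.62 ± 0.10 (SD, n = 3) in DOX and 9.04 ± 0.27 (SD, n = 2) in CTRL. The DOX pools were the lowest of the 8, below every IMB and every CTRL pool, and the IMB and CTRL pools overlapped.

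miR-93-5p, which shares the seed of miR-106b-5p, had log2 scaled signals of 8.80, 8.71 and 8.25 in the IMB pools, 8.21, 7.89 and 7.72 in the DOX pools, and 8.64 and 8.12 in the CTRL pools. Group means were 8.59 ± 0.30 (SD, n = 3) in IMB, 7.94 ± 0.25 (SD, n = 3) in DOX and 8.38 ± 0.37 (SD, n = 2) in CTRL. All IMB pools again lay above all DOX pools, but IMB 3 and DOX 1 were nearly level, and DOX 1 lay above CTRL 2, so DOX and CTRL overlapped for this miRNA.

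miR-25-3p, the member with the other seed, had log2 scaled signals of 9.52, 9.49 and 9.05 in the IMB pools, 8.99, 8.70 and 8.62 in the DOX pools, and 9.60 and 9.09 in the CTRL pools. Group means were 9.35 ± 0.26 (SD, n = 3) in IMB, 8.77 ± 0.19 (SD, n = 3) in DOX and 9.34 ± 0.36 (SD, n = 2) in CTRL. The DOX pools were below all others, as for miR-106b-5p, and CTRL 1 was the highest pool of all. For each member the order of the group means was IMB, CTRL, DOX, and the neighbours IMB and CTRL differed by less than the SD of either group.

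**Figure D1:**
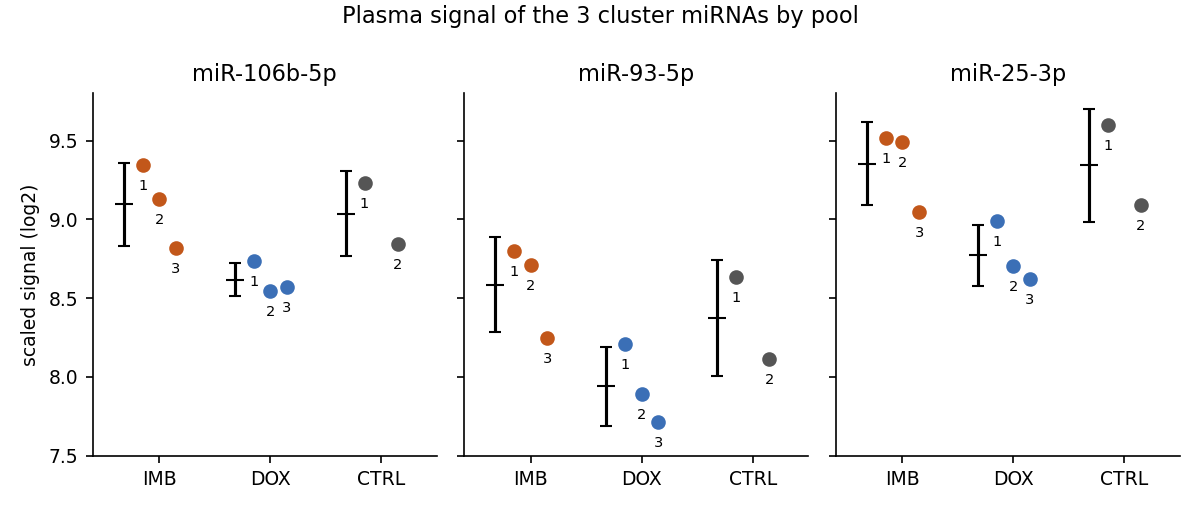
Log2 scaled signal (vertical axis) of the 3 members in each pool, with the pool number under each point, for IMB, DOX and CTRL; bars give the mean and SD over 3, 3 and 2 pools. The DOX points lie below all IMB points in each panel and below both CTRL points for miR-106b-5p and miR-25-3p, while 1 DOX point of miR-93-5p (8.21) is above CTRL 2 (8.12).

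Agilent's own gene-level value, the total gene signal, is a linear intensity without scaling between arrays. For miR-106b-5p the IMB pools gave 191, 457 and 217, the DOX pools 136, 139 and 152, and the CTRL pools 269 and 314. For miR-93-5p the IMB pools gave 131, 342 and 145, the DOX pools 94.2, 88.6 and 84.0, and the CTRL pools 179 and 189. For miR-25-3p the IMB pools gave 215, 588 and 254, the DOX pools 162, 155 and 158, and the CTRL pools 348 and 372. Before scaling, the DOX pools were thus the lowest for every member, both CTRL pools lay above them, and IMB 2 stood above the other IMB pools as it did in its overall signal. The overall signal was also lower in DOX than in CTRL pools, so these unscaled values hold both differences.

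Each member was higher on average in imatinib than in doxorubicin plasma, short of the threshold. In IMB against DOX the log2 difference was 0.48 for miR-106b-5p (SE 0.17, 1.39-fold, 95% interval 1.04 to 1.86), 0.65 for miR-93-5p (SE 0.23, 1.57-fold, 1.06 to 2.32) and 0.58 for miR-25-3p (SE 0.20, 1.5-fold, 1.06 to 2.12). The unadjusted limma p-values were 0.031, 0.032 and 0.030, and each adjusted p was 0.364, so 0 of the 3 passed the threshold and 3 of the 3 had an unadjusted p under 0.05. Over all 294 miRNAs tested, 1.02% passed the threshold, and 10.9% had an unadjusted p under 0.05, 5.78% being higher in IMB as the members were. Every IMB pool lay above every DOX pool for 3 of 3 members, against 6.80% of all miRNAs tested. The margin was narrow and lay between IMB 3 and DOX 1 each time: 8.82 and 8.74, 8.25 and 8.21, and 9.05 and 8.99. The members' profiles over the pools are alike, so these are not 3 independent cases. The median difference was 0.58 over the members and 0.00 over all miRNAs tested. Some miRNAs tested, such as miR-17-3p, were held at the floor, the lowest value given, which fixes their differences at 0. With Agilent's total signal the median over all miRNAs tested was -0.06. In plasma, a change in the number of cells that release a miRNA and a change in the amount each releases cannot be told apart.

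With imatinib against the controls the members' differences were small beside the spread of the pools. The log2 difference was 0.06 for miR-106b-5p (SE 0.19, 95% interval -0.41 to 0.53), 0.21 for miR-93-5p (SE 0.26, -0.42 to 0.85) and 0.01 for miR-25-3p (SE 0.23, -0.55 to 0.57). Adjusted p-values from limma were 1, 0.919 and 1, and 0 of 3 passed at the adjusted threshold or at an unadjusted p under 0.05, where 1.02% and 7.82% of all miRNAs did. IMB and CTRL pools overlapped for all 3 members, where 10.9% of all miRNAs had every IMB pool above and 6.80% every IMB pool below both CTRL pools. The intervals leave room for changes of up to 1.44-fold, 1.80-fold and 1.49-fold upward and to 0.755, 0.745 and 0.682 of the CTRL level downward. Leaving out CTRL 2 turned the direction for all 3 members, to -0.13, -0.05 and -0.24, so no direction can be read from these values.

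With doxorubicin against the controls each member was lower on average, short of the threshold. The log2 difference was -0.42 for miR-106b-5p (SE 0.19, 95% interval -0.88 to 0.05), -0.44 for miR-93-5p (SE 0.26, -1.07 to 0.20) and -0.57 for miR-25-3p (SE 0.23, -1.14 to -0.01). These correspond to 0.748, 0.739 and 0.672 of the CTRL level. Adjusted p-values from limma were 0.587, 0.767 and 0.578, so 0 of 3 passed, where 0.340% of all miRNAs tested did. Before adjustment 1 of 3, miR-25-3p, was under 0.05 in that fit, where 8.50% of all miRNAs were. DOX pools were below both CTRL pools for 2 of 3 members, and 9.86% of all miRNAs tested showed that pattern. IMB minus CTRL and DOX minus CTRL share the 2 CTRL pools and are not independent of each other.

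The 2 CTRL pools were far apart for these miRNAs, and the doxorubicin differences moved with them. CTRL 1 exceeded CTRL 2 by 0.38 for miR-106b-5p, 0.52 for miR-93-5p and 0.51 for miR-25-3p on the log2 scale. Without CTRL 1 the DOX minus CTRL differences were -0.23, -0.18 and -0.32 in that order of members, and without CTRL 2 they were -0.61, -0.70 and -0.83. The sign was negative in both cases, and the size changed by more than 1.5 times without CTRL 1.

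**Figure D2:**
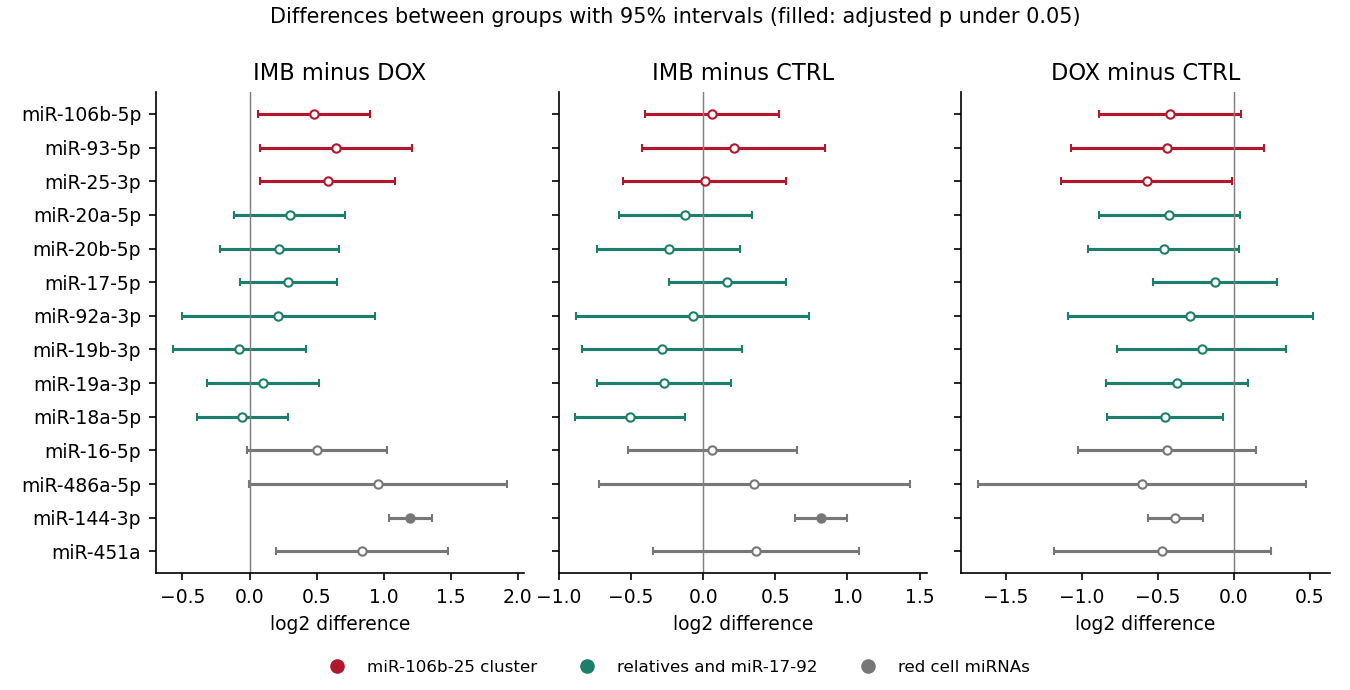
Log2 differences (horizontal axes) with 95% intervals from limma for IMB minus DOX, IMB minus CTRL and DOX minus CTRL; red marks the cluster, green its seed relatives and miR-17-92, and grey the red cell miRNAs, and a filled point has an adjusted p under 0.05. The members' intervals lie above 0 in IMB minus DOX (0.48, 0.65 and 0.58), cross 0 in IMB minus CTRL, and lie mostly below 0 in DOX minus CTRL, and the filled points belong to miR-144-3p.

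The slide rows allow the same comparisons within each row, with 1 or 2 pools a side and no test. In row 1, IMB minus DOX was 0.70 for miR-106b-5p, 0.75 for miR-93-5p and 0.67 for miR-25-3p, and in row 2 it was 0.40, 0.76 and 0.65. DOX minus CTRL was -0.59, -0.58 and -0.75 in row 1 and -0.27, -0.40 and -0.47 in row 2. Both differences therefore had the same sign in both rows for every member. For IMB minus DOX no other sign was possible, since every IMB pool lay above every DOX pool. The same holds for DOX minus CTRL of miR-106b-5p and miR-25-3p, whose DOX pools all lay below both CTRL pools. Only for DOX minus CTRL of miR-93-5p was the sign free to differ between the rows. IMB minus CTRL was 0.12, 0.17 and -0.08 in row 1 and 0.13, 0.36 and 0.18 in row 2, and differed in sign between rows for miR-25-3p.

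The 2 probes of each member gave like differences. In IMB against DOX they were 0.46 and 0.51 for miR-106b-5p, 0.66 and 0.64 for miR-93-5p, and 0.58 and 0.58 for miR-25-3p. In DOX against CTRL they were -0.40 and -0.44, -0.33 and -0.47, and -0.54 and -0.59 for the same members. For every one of the 6 probes all IMB pools lay above all DOX pools. In IMB against CTRL the probes gave 0.06 and 0.07 for miR-106b-5p, 0.32 and 0.17 for miR-93-5p, and 0.04 and -0.0030 for miR-25-3p.

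The other arms of the hairpins were not measurable in plasma. miR-106b-3p had 4 probes, miR-93-3p had 4 and miR-25-5p had 2. Of their 230, 214 and 231 spots over the 8 arrays, 0 were well above background. Probe means ranged from -4.50 to 6.26 intensity units, around the background, and these arms were not tested. Not well above background is a bound set by the array and says nothing of a level below it.

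**Figure D3:**
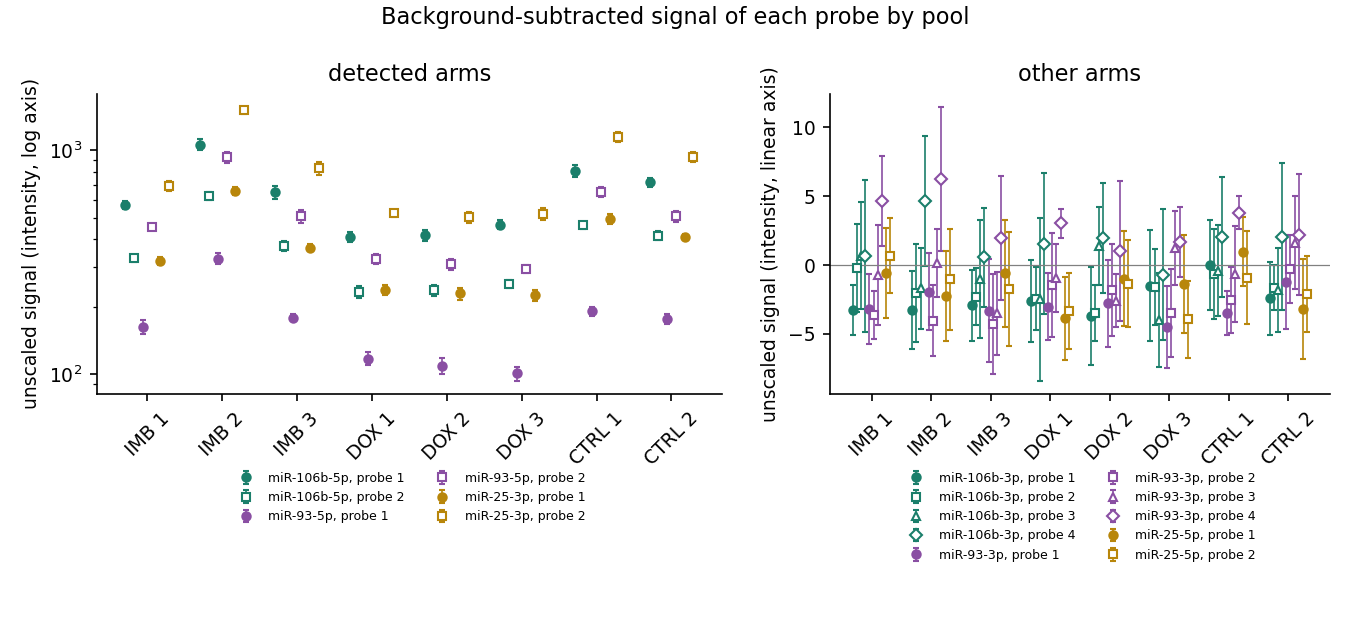
Background-subtracted signal of each probe before scaling, in intensity units, as the mean and SD over the spots of a probe in each pool; the left panel has a log axis and shows the detected arms, the right panel a linear axis and the other arms. The left probes run from 101 to 1507 and mostly rise and fall together from pool to pool, while the right probes stay between -4.50 and 6.26. These unscaled values also hold the differences in overall signal between arrays.

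The members' proportions to each other were compared as log2 ratios within each array. From the lowest to the highest of the 8 arrays, the log2 ratio of miR-25-3p to miR-93-5p spanned 0.26. That of miR-25-3p to miR-106b-5p spanned 0.32 and that of miR-106b-5p to miR-93-5p spanned 0.44. Over the same arrays the log2 scaled signal of miR-106b-5p itself ran from 8.54 to 9.34. A ratio within an array needs no scaling between arrays, and only its changes are read here, since probes of different miRNAs differ in brightness. The log2 ratio of miR-25-3p to miR-93-5p was 0.72, 0.78 and 0.80 in the IMB pools, 0.78, 0.81 and 0.91 in the DOX pools, and 0.96 and 0.97 in the CTRL pools. Ratios were highest in the CTRL pools, and the pools of both drugs lay below them. The difference was -0.20 for IMB minus CTRL (exact 2-sided permutation p = 0.1, which is as low as 3 against 2 pools can go) and -0.14 for DOX minus CTRL (exact permutation p = 0.2). After Benjamini-Hochberg adjustment over the 9 ratio tests each of these had a value of 0.45, which was the lowest of the 9. In IMB against DOX the members' ratios differed by -0.17 for miR-106b-5p to miR-93-5p, 0.10 for miR-25-3p to miR-106b-5p and -0.06 for miR-25-3p to miR-93-5p (exact permutation p = 0.3, 0.4 and 0.3). No pair of members was shown to shift unequally, and with 3 pools a side no such test can go below 0.1.

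The profiles most like each member were found by the root mean square difference, in log2 units over the 8 arrays, after each profile was centred on its own mean. The 244 other miRNAs detected on all 8 arrays were compared, and the values are a description of arrays that share a slide and a scaling. For miR-106b-5p the closest were miR-16-5p (0.07), miR-6937-5p (0.08), miR-15a-5p (0.10), miR-25-3p (0.10) and miR-20a-5p (0.11), and miR-93-5p was number 7 (0.13). For miR-93-5p they were miR-25-3p (0.09), miR-16-5p (0.09), miR-106b-5p (0.13), miR-451a (0.13) and miR-6937-5p (0.18). For miR-25-3p they were miR-16-5p (0.07), miR-93-5p (0.09), miR-106b-5p (0.10), miR-6937-5p (0.16) and miR-15b-5p (0.17). The median over all 244 was 0.37, 0.44 and 0.43. Each member thus had the other members among its nearest 7, and miR-16-5p was about as near as they were, or nearer.

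**Figure D4:**
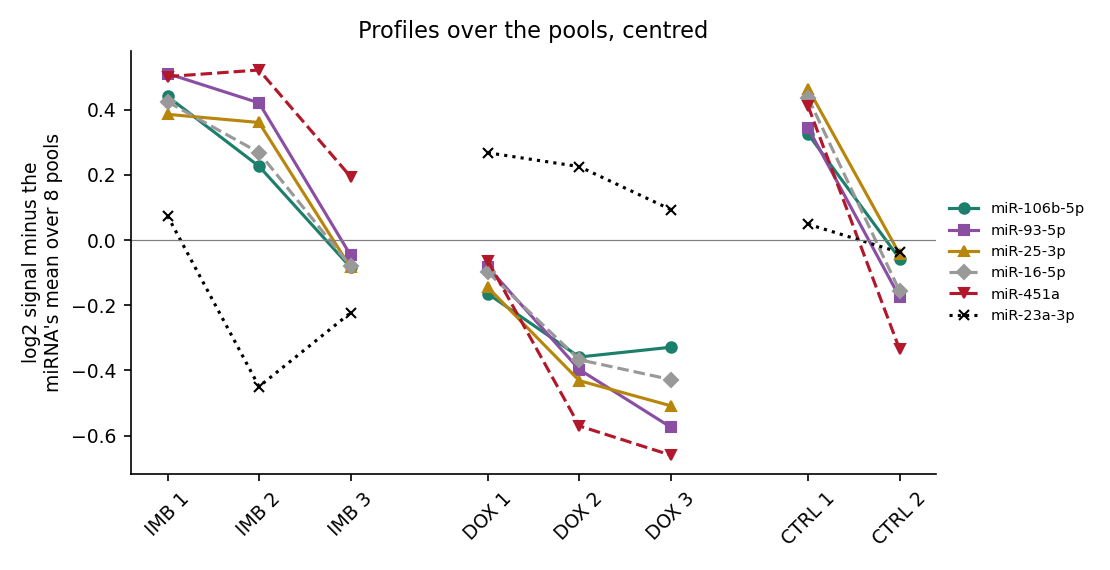
Log2 signal minus each miRNA's own mean over the 8 pools (vertical axis) for the 3 members, miR-16-5p, miR-451a and miR-23a-3p in the IMB, DOX and CTRL pools; lines only join the points of a group for the eye. The members and miR-16-5p lie close together, with root mean square differences of 0.07 to 0.13. Gaps in single pools are wider, as in DOX 3 (-0.33 for miR-106b-5p and -0.57 for miR-93-5p). miR-451a moves in the same directions between groups over a wider range, and miR-23a-3p runs apart from them.

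Among the relatives with the seed of miR-106b-5p and miR-93-5p, miR-20a-5p is made from the miR-17-92 cluster. Its log2 scaled signals were 8.70, 8.41 and 8.11 in the IMB pools, 8.12, 8.15 and 8.06 in the DOX pools, and 8.70 and 8.36 in the CTRL pools. Its DOX pools were below both CTRL pools. Its IMB and DOX pools overlapped, unlike those of the members, but only IMB 3 (8.11) fell below DOX 1 (8.12) and DOX 2 (8.15). The contrast is narrow, since IMB 3 and DOX 1 were also nearly level for miR-93-5p (8.25 and 8.21). Its IMB minus DOX difference was 0.30 (SE 0.17, limma adjusted p = 0.575) and its DOX minus CTRL difference -0.42 (SE 0.19, limma adjusted p = 0.587). miR-20b-5p, from the X-linked miR-106a-363 cluster, had 7.93, 7.56 and 7.34 in the IMB pools, 7.34, 7.44 and 7.38 in the DOX pools, and 8.05 and 7.65 in the CTRL pools. Its differences were 0.22 for IMB minus DOX, -0.24 for IMB minus CTRL and -0.46 for DOX minus CTRL. miR-17-5p was near the floor of 4.40, with at most 4.99 in any pool, and its differences of 0.29, 0.17 and -0.12 in the same order are limited by that floor. A further relative, miR-106a-5p, was not analysed here. The differences between members and relatives were not tested.

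Among the relatives with the seed of miR-25-3p, 1 of 5 could be tested. miR-92a-3p, the last miRNA of miR-17-92, had log2 scaled signals of 10.26, 9.59 and 9.25 in the IMB pools, 9.69, 9.52 and 9.26 in the DOX pools, and 9.98 and 9.56 in the CTRL pools. All 3 groups overlapped. Its differences were 0.22 for IMB minus DOX (SE 0.29, limma adjusted p = 0.889), -0.07 for IMB minus CTRL and -0.29 for DOX minus CTRL. miR-92b-3p, miR-32-5p, miR-363-3p and miR-367-3p were not detected on any array.

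Of the 10 listed mature forms of the paralog cluster miR-17-92, 7 were tested, and 0 passed the limma threshold in any comparison. Before adjustment 0, 1 and 1 of the 7 were under 0.05 in IMB against DOX, IMB against CTRL and DOX against CTRL, where 10.9%, 7.82% and 8.50% of all miRNAs tested were. One form among the 7, miR-17-3p, was at the floor on all 8 arrays, so its differences are fixed at 0. Their median difference was 0.10 in IMB against DOX, -0.12 in IMB against CTRL and -0.29 in DOX against CTRL, beside medians of 0.00, 0.01 and 0.00 over all miRNAs tested. Over the 6 forms without miR-17-3p the medians were 0.16, -0.20 and -0.33. miR-18a-5p had the largest differences from the controls in this list, -0.51 with imatinib (limma adjusted p = 0.321) and -0.45 with doxorubicin (limma adjusted p = 0.478), and it is a dim miRNA with at most 5.24 in any pool. In DOX against CTRL, 5 of the 7 had all DOX pools below both CTRL pools, where 9.86% of all miRNAs tested did, and 0 of the 7 had all IMB pools above all DOX pools, where 6.80% did. Of 7 listed forms of miR-106a-363, 3 were tested and 0 passed, with 0 under 0.05 before adjustment. Their medians were 0.22, -0.24 and -0.29 in the same order. These are counts over lists, and 2 of the 3 tested forms of miR-106a-363 are also counted in miR-17-92.

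Among red cell miRNAs, all IMB pools lay above all DOX pools for 3 of 4 tested (6.80% of all miRNAs tested): miR-451a, miR-144-3p and miR-16-5p. For miR-16-5p the margin was narrow, with IMB 3 at 10.80 and DOX 1 at 10.78. Its differences were 0.50 for IMB minus DOX, 0.06 for IMB minus CTRL and -0.44 for DOX minus CTRL. For miR-486a-5p the groups overlapped, with IMB 3 at 9.86 and DOX 1 at 9.97. miR-451a, a red cell miRNA cut by Ago2 rather than Dicer, had log2 scaled signals of 15.13, 15.15 and 14.82 in the IMB pools, 14.56, 14.05 and 13.96 in the DOX pools, and 15.04 and 14.29 in the CTRL pools. miR-144-3p, made from the same erythroid transcript, had 7.86, 7.78 and 7.82 in the IMB pools, 6.66, 6.57 and 6.64 in the DOX pools, and 7.12 and 6.89 in the CTRL pools. For miR-144-3p the IMB pools lay above both CTRL pools too, which was not so for any member. miR-144-3p was higher in IMB than in DOX by 1.20 (SE 0.06, limma adjusted p = 9.0e-04) and than in CTRL by 0.82 (SE 0.07, limma adjusted p = 0.0077). miR-451a differed by 0.84 between IMB and DOX (SE 0.26, limma adjusted p = 0.317).

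Of the 5 listed red cell miRNAs, 4 were tested and detected on all 8 arrays, among them both defining markers, miR-451a and miR-144-3p, and miR-144-5p was not well above background on any array. In IMB against DOX 1 of the 4 passed and 2 were under 0.05 before adjustment (1.02% and 10.9% of all miRNAs tested), with a median difference of 0.90. In IMB against CTRL 1 of 4 passed and 1 was under 0.05 before adjustment (1.02% and 7.82% of all), with a median of 0.36. In DOX against CTRL 0 of 4 passed in limma and 1 was under 0.05 before adjustment (0.340% and 8.50% of all), with a median of -0.45. Their summed scaled signal ran from 31843 to 40227 in IMB pools, 17947 to 27027 in DOX pools and 22589 to 37599 in CTRL pools. The red cell index, the log2 ratio of miR-451a to miR-23a-3p, came to 3.91, 4.45 and 3.90 in the IMB pools, 3.15, 2.68 and 2.73 in the DOX pools, and 3.84 and 3.18 in the CTRL pools. It was higher in every IMB pool than in every other pool, and the difference between IMB and DOX was 1.23 (exact 2-sided permutation p = 0.1, as low as this design goes). In the authors' deposited table the same difference in the index was 0.30, against 1.23 from the scanner files. IMB minus CTRL was 0.05 in that table, against 0.57 from the scanner files. Part of the index lies in its denominator: miR-23a-3p differed by -0.40 between IMB and DOX (SE 0.14, limma adjusted p = 0.364), with every IMB pool below every DOX pool. The members' summed signal ran from 1285 to 1830 in IMB pools, 986 to 1231 in DOX pools and 1283 to 1773 in CTRL pools. The part of red cell RNA in the members' differences was not tested.

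Lists of other cell types had 0 miRNAs past the limma threshold in any of the 3 comparisons. Of their 17 tested miRNAs, 6 were under 0.05 before adjustment in IMB against DOX, 1 in IMB against CTRL and 4 in DOX against CTRL, where 10.9%, 7.82% and 8.50% of all miRNAs tested were, and all 4 epithelial ones were among them in the first and the last. In IMB against DOX the median difference was -0.12 for 3 of myeloid cells and platelets, 0.01 for 2 of lymphocytes, -0.60 for 2 of endothelium, -0.05 for 3 of liver, 0.85 for 3 of muscle and -0.36 for 4 of epithelium. In DOX against CTRL these medians were -0.27, -0.24, 0.39, 0.59, 1.30 and 0.58 in the same order. In IMB against CTRL they were -0.27, -0.24, -0.21, 0.65, 2.16 and 0.17. Muscle had the highest of these medians in IMB against DOX. Its summed signal ran from 96.5 to 1112 in IMB pools, 107 to 308 in DOX pools and 49.1 to 69.9 in CTRL pools. IMB and DOX pools overlapped for all 3 tested muscle miRNAs, each of them highest in IMB 2. For example, miR-1a-3p had log2 scaled signals of 9.02 in IMB 2, 5.16 in IMB 3 and 7.02 in DOX 1. The muscle and red cell lists both had positive medians in IMB against DOX (0.85 and 0.90) and in IMB against CTRL (2.16 and 0.36). In DOX against CTRL their medians were of opposite sign (1.30 and -0.45).

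The way the arrays were scaled changed the size of the members' differences. Without scaling, IMB minus DOX was 0.79, 0.95 and 0.89 for miR-106b-5p, miR-93-5p and miR-25-3p, where the median of all miRNAs tested was 0.23. Relative to that median the differences were 0.55, 0.72 and 0.66. Without scaling, DOX minus CTRL was -0.84, -0.86 and -0.99, the median of all was -0.32, and the values relative to it were -0.52, -0.54 and -0.68. With miR-24-3p and miR-23a-3p as the scale, IMB minus DOX was 0.86, 1.03 and 0.96. These 2 miRNAs themselves differed by -0.37 and -0.40 between IMB and DOX under the reported scaling. For both, every IMB pool lay below every DOX pool, and dividing by them adds that shift to the members' values. The median of all was then 0.30, and the values relative to it were 0.56, 0.73 and 0.66. The median takes in miRNAs held at the floor, which scaling moves little or not at all. The values relative to it can therefore still hold part of the shift between arrays. Under each of the 25 alternatives, IMB minus DOX stayed positive and DOX minus CTRL negative for all 3 members. None of the 225 values of the members passed the threshold. Not every alternative could move these estimates. Changing the filter, the variance model or the groups fitted, or leaving out a pool of the group not compared, leaves them as they are, as did the lower floor. With every IMB pool above every DOX pool, leaving out any pool could not turn the sign of IMB minus DOX.

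**Figure D5:**
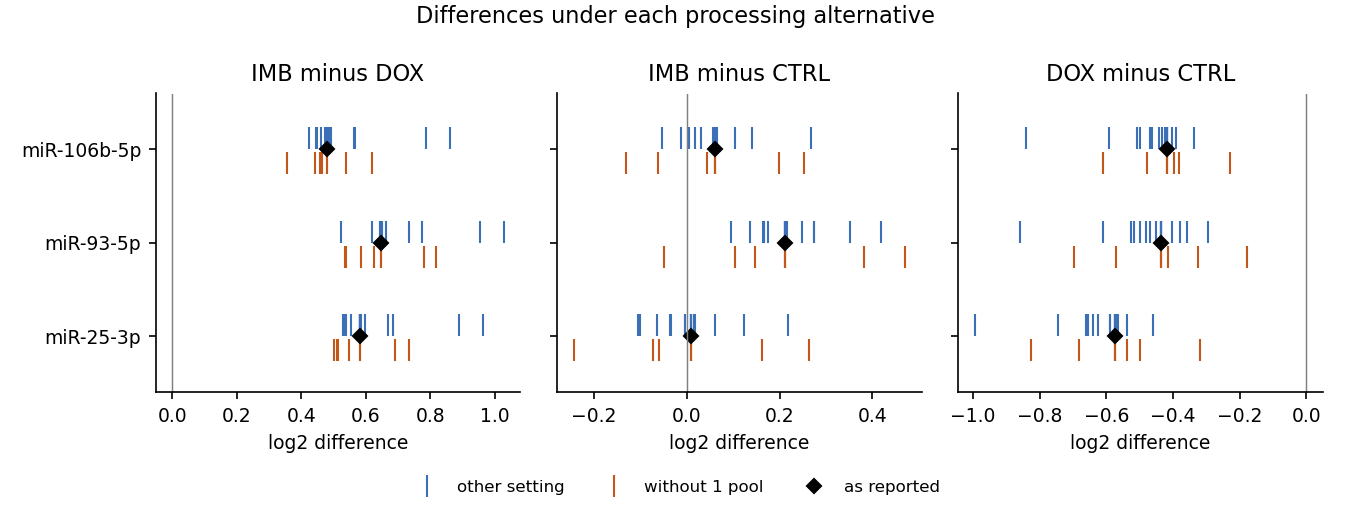
Log2 differences of the 3 members (horizontal axes) as reported (diamonds), under 17 other settings (blue ticks) and with 1 of the 8 pools left out (orange ticks). The ticks of IMB minus DOX all lie right of 0 and those of DOX minus CTRL all left of 0, while those of IMB minus CTRL fall on both sides for each member.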

How the data were processed

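Per the labels' protocols, RNA from 300 µl of pooled plasma was isolated and 3.1 µl of it was labelled with Cy3 for 1-colour Agilent miRNA arrays. The deposited scanner files hold linear intensity per spot from Agilent Feature Extraction, version 11.5.1.1 in the submitters' processing notes. This intensity had its background subtracted and was not scaled between arrays, per the file headers. A log2 table deposited by the authors served only as an alternative, since how it was normalized is not given in the sources.

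Outlier and control spots were left out, and the other spots of a probe were averaged. Each array was divided by the 75th percentile of the 454 probes detected on all 8 arrays and brought back to the median of those percentiles. A probe was detected where over 50% of its spots were well above background. A miRNA's value is the mean of its probes' linear signals, with a floor of 21.1, or 4.40 after taking log2. Tests covered 294 mouse miRNAs, those detected in all pools of some group, and used lmFit and eBayes of limma 3.58.1 under R 4.3.3 (2-sided, all 8 arrays, Benjamini-Hochberg within each comparison, threshold 0.05). The fit had 5 residual and 0.605 prior degrees of freedom. Single ratios were compared by exact 2-sided permutation over pools. Mature, hairpin and promoter sequences are those of RefSeq on GRCm38.p6. No probe sequence was used here.

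The members, the lists of relatives and markers and the alternatives were chosen with earlier results of these data known. Named are the members, the other arms of their hairpins, seed relatives, paralog clusters, marker lists, every miRNA past the threshold, and the 5 profiles most like each member. Alternatives covered the signal summary, floor, filter, scaling, background, probe summary, replicate and slide-row blocks, variance model, the authors' table and leaving out each pool. For normexp, the median signal of each spot was the input.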

Additional observations from a re-analysis of the deposited data

How the results depend on the processing

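Over 25 alternatives, none of the 225 values of the members passed the threshold (lowest limma adjusted p 0.074), IMB minus DOX ran from 0.36 to 1.03 and DOX minus CTRL from -0.99 to -0.18. For IMB minus CTRL the sign turned as follows. miR-25-3p was -0.034 with Agilent's total signal, -0.0048 with normexp, -0.10 without scaling, -0.064 with scaling to the median, -0.10 with quantile normalization, -0.0030 with the brightest probe and -0.037 in the authors' table. miR-106b-5p was -0.054 without scaling and -0.013 with scaling to the median. Leaving out 1 pool gave -0.13 to 0.25 for miR-106b-5p, -0.049 to 0.47 for miR-93-5p and -0.24 to 0.26 for miR-25-3p. The ratio of miR-106b-5p to miR-93-5p in DOX minus CTRL turned to -0.065 in the authors' table, -0.022 with the mean of log2 probe values and -0.035 with normexp, and ran from -0.071 to 0.092 with 1 pool left out. The ratio of miR-25-3p to miR-93-5p in IMB minus DOX turned to 0.0087 with normexp, and that of miR-25-3p to miR-106b-5p in IMB minus CTRL ran from -0.11 to 0.012 with 1 pool left out. The cause of these turns was not tested.

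Counts of miRNAs past the threshold were small and moved. DOX minus CTRL (1) gave 2 with Agilent's total signal, a lower floor, the authors' table and the percentile over all probes, 0 without a filter and with only the compared groups, and 0 to 2 with 1 pool left out. IMB minus CTRL (3) gave 1 with Agilent's total signal, scaling to the median, a lower floor and the authors' table, 0 without scaling, with the percentile over all probes, with the reference miRNAs and without a filter, and 0 to 12 with 1 pool left out (12 without IMB 1). IMB minus DOX (3) gave 5 with Agilent's total signal and a lower floor, 6 with the mean of log2 probe values, and 3 to 20 with 1 pool left out (20 without IMB 1). Leaving out a CTRL pool leaves 1 control, assumed to vary like the other pools.

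With the replicate number as a block, the members' IMB minus DOX values were 0.48, 0.65 and 0.58 (limma adjusted p = 0.177, 0.171 and 0.177) and DOX minus CTRL -0.34, -0.30 and -0.46, and 0, 2 and 4 miRNAs passed in DOX minus CTRL, IMB minus CTRL and IMB minus DOX. Deviations of pools with the same number correlated from -0.18 to 0.42, and those of pools with different numbers from -0.45 to 0.45. Deviations of the 2 CTRL pools mirror each other by construction. These values therefore cannot show whether pools with the same number share more than a number.

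Signal over background did not limit the members, whose spots were all well above it, but did limit miR-17-5p, miR-18a-5p and the other arms. The number of pools also limits the results, with 2 controls and 0.1 as the smallest exact p. The red cell index in the authors' table was 0.30 for IMB minus DOX, 0.05 for IMB minus CTRL and -0.25 for DOX minus CTRL, against 1.23, 0.57 and -0.66 from the scanner files, and the cause was not tested.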
